A study of Homo sapiens with 8 samples.

Results

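The platelet-derived growth factor (PDGF) ligands PDGFA, PDGFB, PDGFC and PDGFD, their receptors PDGFRA and PDGFRB, the vascular endothelial growth factor (VEGF) ligands VEGFB and VEGFC, and the co-receptors NRP1 and NRP2 were examined in MDA-MB-157 cells. The genes were chosen by symbol, and all 10 were among the 21059 genes of the expression table. MDA-MB-157 is an established human breast cancer line without estrogen receptor. RNA was sequenced after 48 hours in flasks at 5 mM glucose, called low glucose here, or at 25 mM, called high glucose, with 4 libraries of each kind. Per the study's methods, all cells were first conditioned in low-glucose medium and then kept without serum in both groups. The comparison asks how a glucose level that models diabetes alters the transcripts of these cells. The data come from 1 cell line, and no library with an added osmotic control was analysed here. At high glucose, the transcripts of 6 of the 10 genes were lower and those of 1 were higher, where 24.8% of all 21059 genes were lower and 22% higher. Called in either direction were 7 of the 10, against 46.8% of all genes and 62.1% of those of at least 1 count per 1000000 reads. The low glucose mean exceeded the high glucose mean 1.90-fold for PDGFRB, 2.10-fold for PDGFD and 2.29-fold for PDGFB, NRP1, VEGFB and NRP2 fell by smaller steps, and VEGFC rose 1.38-fold. PDGFA, PDGFC and PDGFRA did not pass the test.

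PDGF ligands act as disulfide-linked dimers on a pair of receptor tyrosine kinases. PDGFRA binds ligands made of the A, B and C chains, and PDGFRB binds those of the B and D chains. The A and B chains are cleaved inside the cell by furin-like convertases, whereas the C and D chains are secreted in a latent form whose CUB domain must be removed outside the cell. VEGFC is the main ligand of FLT4, the receptor of lymphatic endothelium, and VEGFB binds FLT1. NRP1 and NRP2 are transmembrane co-receptors shared between VEGF ligands and class 3 semaphorins. In breast tumors, PDGF receptors are best known from fibroblasts and pericytes of the stroma, and they also appear in cancer cells of mesenchymal character.

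RefSeq start sites were matched for 7 of the 10 genes, and no entry was matched for PDGFB, PDGFC and NRP1. The sequences given here are the 250 bases upstream of the start sites of 4 genes, the strongest matched falls (PDGFD and PDGFRB) and the pair of VEGF ligands that moved in opposite directions. Each is written 5′ to 3′ on the strand of its gene, in build GRCh38.p14. The windows lie at chr11:104164148-104164397 on the minus strand for PDGFD, at chr5:150155846-150156095 on the minus strand for PDGFRB, at chr4:176792923-176793172 on the minus strand for VEGFC and at chr11:64234334-64234583 on the plus strand for VEGFB. Capitals mark the GC box GGGCGG, read on either strand, which SP-family factors can bind.
PDGFD: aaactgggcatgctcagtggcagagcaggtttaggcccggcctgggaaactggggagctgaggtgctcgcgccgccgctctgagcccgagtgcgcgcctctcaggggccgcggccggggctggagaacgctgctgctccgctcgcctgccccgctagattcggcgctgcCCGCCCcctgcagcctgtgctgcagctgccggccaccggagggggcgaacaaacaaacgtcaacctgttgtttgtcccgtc
PDGFRB: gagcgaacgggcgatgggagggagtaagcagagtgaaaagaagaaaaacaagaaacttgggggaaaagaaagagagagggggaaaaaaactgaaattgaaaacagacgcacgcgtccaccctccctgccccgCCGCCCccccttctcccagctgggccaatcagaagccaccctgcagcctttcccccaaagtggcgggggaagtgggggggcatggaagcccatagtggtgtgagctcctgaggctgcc
VEGFC: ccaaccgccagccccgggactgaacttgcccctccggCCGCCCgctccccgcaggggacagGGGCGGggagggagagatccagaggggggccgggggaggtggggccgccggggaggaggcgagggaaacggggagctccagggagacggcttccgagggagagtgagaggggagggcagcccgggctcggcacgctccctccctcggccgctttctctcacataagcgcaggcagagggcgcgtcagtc
VEGFB: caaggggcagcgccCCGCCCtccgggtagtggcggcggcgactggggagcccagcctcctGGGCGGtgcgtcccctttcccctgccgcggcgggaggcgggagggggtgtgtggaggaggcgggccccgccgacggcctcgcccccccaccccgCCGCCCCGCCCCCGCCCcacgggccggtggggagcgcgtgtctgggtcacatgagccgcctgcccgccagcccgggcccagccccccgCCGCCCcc
The GC box matched 1 time in the window of PDGFD, 1 time in that of PDGFRB, 2 times in that of VEGFC and 6 times in that of VEGFB, counting overlapping matches, and 42.6% of all 35116 upstream windows of this length held at least 1 match. GC content was 69.2%, 58.4%, 74% and 82.8% in the same order, against a median of 58% over all windows. None of the 4 windows held the AP-1 motif TGACTCA, the E-box CACGTG, the hypoxia core ACGTG that the E-box contains, or the TATA box TATAAA, which 4.2%, 6.34%, 18.5% and 10.7% of all windows held. These 4 windows, from genes that fell and a gene that rose, thus shared a GC box and the absence of these other letters. The windows of PDGFA, whose change did not pass the test, showed the same. PDGFRA, which did not pass either, had a window starting at 54229043 with 0 GC boxes and another starting at 54233710 with 2. A link between these letters and the changes was not tested.

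Depth, read from the smallest step of the values, was about 9721600 to 12482500 reads, and 3 reads were worth 0.212 to 0.267 CPM, the counts per 1000000 reads after the authors' scaling. Levels of ESR1, the estrogen receptor gene, were 0 to 0.170 CPM in the 8 libraries, below the value of 3 reads. The study lists the line as estrogen receptor negative. Replicate 1 at high glucose stood apart from the rest of its group, with low values for long transcripts (Spearman correlation across 11223 genes of -0.65 with transcript length, against -0.13 to 0.47 in the other 7 libraries). For the 10 genes, the log2 change without this library is given where it moved by more than 0.05, and for the other genes named here only the counts of calls were recomputed without it. At an adjusted p under 0.05, 46.8% of all genes tested differed between the groups, 22% higher and 24.8% lower at high glucose. All 10 genes averaged at least 1 CPM, and of the 14372 genes at that level 62.1% differed, 29.5% higher and 32.6% lower. The count of 7 in 10 is thus close to the share among genes of this level. The 6 in 10 lower, beside 32.6%, was not tested, and the genes were chosen with earlier results of these data known. A call with a log2 change under -0.9, as for 3 of the 10 genes, was made for 3.61% of all genes and 5.23% of those of at least 1 CPM. This cutoff lies next to the values of PDGFB (-0.91) and PDGFRB (-0.93), so the 3 in 10 is no test against these shares. With quantile normalization PDGFD was at -1.13, PDGFB at -0.76 and PDGFRB at -0.73.

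**Figure D1:**
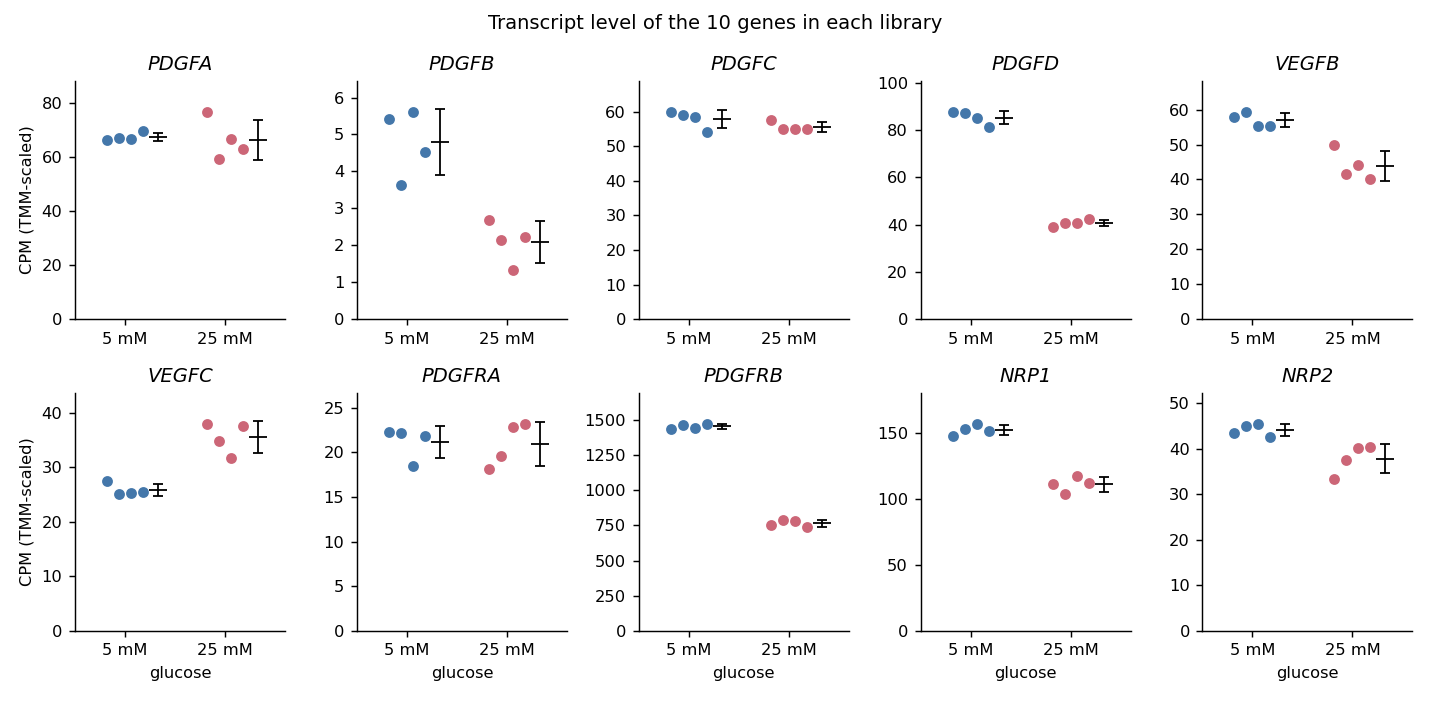
Level of each of the 10 genes in TMM-scaled CPM (vertical axis, from 0) in the 4 low glucose (5 mM, blue) and 4 high glucose (25 mM, red) libraries, with replicates 1 to 4 from left to right. Bars beside the points show the mean ± SD, and the groups do not overlap in 7 of the 10 panels, with VEGFC the one gene that is higher at 25 mM.

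Among the PDGF ligands, the transcripts of the B and D chains fell, while for the A and C chains no change passed the test. PDGFD (ENSG00000170962.13, chromosome 11, 103907189 to 104164147), a ligand of PDGFRB, was at 87.7, 87.3, 85.2 and 81.4 CPM in low glucose replicates 1 to 4 and at 38.96, 40.7, 40.8 and 42.2 CPM in high glucose replicates 1 to 4. Every high glucose library lay below every low glucose library, and neither group varied by more than a few CPM. The mean fell from 85.4 ± 2.90 CPM (SD, n = 4) to 40.7 ± 1.33 CPM (n = 4), a log2 change of -1.05 with a 95% interval of -1.13 to -0.97 (limma, adjusted p = 1.6e-06). Ordered by log2 change from the strongest fall, the gene was at place 421 of the 14372 genes of at least 1 CPM.

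PDGFB (ENSG00000100311.16, chromosome 22, 39223359 to 39244982), which binds both receptors and was the least abundant of the 10 genes, was at 5.42, 3.64, 5.61 and 4.52 CPM in low glucose and at 2.68, 2.15, 1.32 and 2.22 CPM in high glucose. The groups did not overlap, although these values rest on few reads, 44 to 66 in a low glucose library and 16 to 38 in a high glucose one. The mean fell from 4.80 ± 0.903 to 2.09 ± 0.567 CPM, and the log2 change was -0.91 with a 95% interval of -1.33 to -0.50 (limma, adjusted p = 0.00435), the widest interval of the 10. Since the change is on the log2(CPM + 1) scale, it understates the ratio of so low a gene, and with a pseudocount of 0.1 it was -1.18. Without high glucose replicate 1 the log2 change was -1.002 (limma, adjusted p = 0.00465).

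PDGFA (ENSG00000197461.13, chromosome 7, 497258 to 520700), a ligand of PDGFRA, was at 66.4, 67.2, 66.8 and 69.6 CPM in low glucose and at 76.8, 59.5, 66.9 and 63.2 CPM in high glucose. High glucose replicate 1 was the highest of all 8 libraries and replicate 2 the lowest, so the groups overlapped. The log2 change was -0.03 with a 95% interval of -0.20 to 0.15 (limma, adjusted p = 0.831), and it was -0.10 without high glucose replicate 1 (adjusted p = 0.106).

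PDGFC (ENSG00000145431.11, chromosome 4, 156760454 to 156971799), the other ligand with a CUB domain, was at 59.9, 58.97, 58.5 and 54.0 CPM in low glucose and at 57.7, 54.9, 54.9 and 55.0 CPM in high glucose. Low glucose replicate 4 was the lowest of the 8 libraries and accounted for the overlap of the groups. The log2 change was -0.05 with a 95% interval of -0.14 to 0.03 (limma, adjusted p = 0.263). It passed without low glucose replicate 4 (log2 change -0.09, adjusted p = 0.0314) and with quantile normalization (-0.13, adjusted p = 0.0300).

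The PDGF receptors differed in both level and response. PDGFRB (ENSG00000113721.14, chromosome 5, 150113839 to 150155845), the receptor for the B and D chains, was at 1438, 1465, 1445.5 and 1474 CPM in low glucose and at 754, 789, 783 and 738 CPM in high glucose. The spread within each group was small beside the gap, with SDs of 16.8 and 24.2 CPM. The mean fell from 1456 to 766 CPM (n = 4 each), so that it decreased by 690 CPM, and the log2 change was -0.93 with a 95% interval of -1.01 to -0.85 (limma, adjusted p = 2.4e-06). By its mean CPM the gene ranked 42 among all genes at low glucose and 98 at high glucose.

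PDGFRA (ENSG00000134853.12, chromosome 4, 54229293 to 54298245), the receptor for the A, B and C chains, was at 22.3, 22.1, 18.4 and 21.8 CPM in low glucose and at 18.1, 19.6, 22.8 and 23.2 CPM in high glucose. Both groups covered the same range. The log2 change was -0.02 with a 95% interval of -0.25 to 0.21 (limma, adjusted p = 0.938), and it was 0.05 without high glucose replicate 1. In the annotation, 23.7% of the 31-base words of its transcript also occur in another gene, a readthrough model (ENSG00000282278) at 0.221 CPM on average, so part of its reads is of uncertain origin.

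The 2 VEGF ligands moved in opposite directions. VEGFC (ENSG00000150630.4, chromosome 4, 176683538 to 176792922), the ligand of FLT4 and KDR, was at 27.5, 25.0, 25.3 and 25.4 CPM in low glucose and at 37.98, 34.8, 31.8 and 37.6 CPM in high glucose. Every high glucose library was above every low glucose library. With means of 25.8 ± 1.14 and 35.5 ± 2.89 CPM, the log2 change was 0.44 with a 95% interval of 0.30 to 0.59 (limma, adjusted p = 9.6e-04). It was the sole member of the 10 that rose, while 22% of all genes tested did so.

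VEGFB (ENSG00000173511.9, chromosome 11, 64234584 to 64239264), a ligand of FLT1 and NRP1, was at 57.8, 59.3, 55.3 and 55.4 CPM in low glucose and at 49.98, 41.7, 44.04 and 40.1 CPM in high glucose. High glucose replicate 1 came closest to the low glucose group but did not reach it. The mean fell from 56.9 ± 1.97 to 43.9 ± 4.34 CPM, and the log2 change was -0.37 with a 95% interval of -0.53 to -0.21 (limma, adjusted p = 0.00335), or -0.43 without high glucose replicate 1. Its transcript of 1805 bases is the shortest of the 10.

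Both neuropilins were lower at high glucose. NRP1 (ENSG00000099250.18, chromosome 10, 33177493 to 33334667), a co-receptor for VEGF ligands and semaphorins, was at 148, 153, 157 and 151 CPM in low glucose and at 111, 103, 117 and 112 CPM in high glucose. The groups were well apart. The mean fell from 152 ± 3.73 to 111 ± 5.65 CPM, and the log2 change was -0.45 with a 95% interval of -0.55 to -0.36 (limma, adjusted p = 8.7e-05). Exons of a noncoding gene on the other strand cover 5.89% of its transcript.

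NRP2 (ENSG00000118257.16, chromosome 2, 205682501 to 205798131), the co-receptor that pairs with FLT4, was at 43.4, 45.1, 45.5 and 42.5 CPM in low glucose and at 33.3, 37.6, 40.1 and 40.3 CPM in high glucose. The highest values at high glucose lay just under the lowest at low glucose. The mean fell from 44.1 ± 1.39 to 37.8 ± 3.26 CPM, and the log2 change was -0.22 with a 95% interval of -0.37 to -0.07 (limma, adjusted p = 0.0236). This was the weakest of the 7 calls. The call was lost with median-of-ratios scaling (-0.18, adjusted p = 0.0646) and without low glucose replicate 2 (adjusted p = 0.0607), low glucose replicate 3 (0.0626) or high glucose replicate 2 (0.0548). Without high glucose replicate 1, its lowest library, the log2 change was -0.16 (adjusted p = 0.0111).

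The groups did not overlap for 7 of the 10 genes, where 44.5% of all genes tested were separated in this way, 20.9% upward and 23.6% downward, and 60% of genes of at least 1 CPM, 28.4% upward and 31.6% downward. For each of these 7 the exact 2-sided permutation test of the difference of mean log2(CPM + 1) gave p = 0.0286, the smallest that 4 against 4 libraries allow. Groups that do not overlap always give this value, so it adds nothing to the separation itself. Values of the 10 genes were whole reads in every library for 7 of them, with small fractions of a read in PDGFRA, PDGFRB and NRP1.

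**Figure D2:**
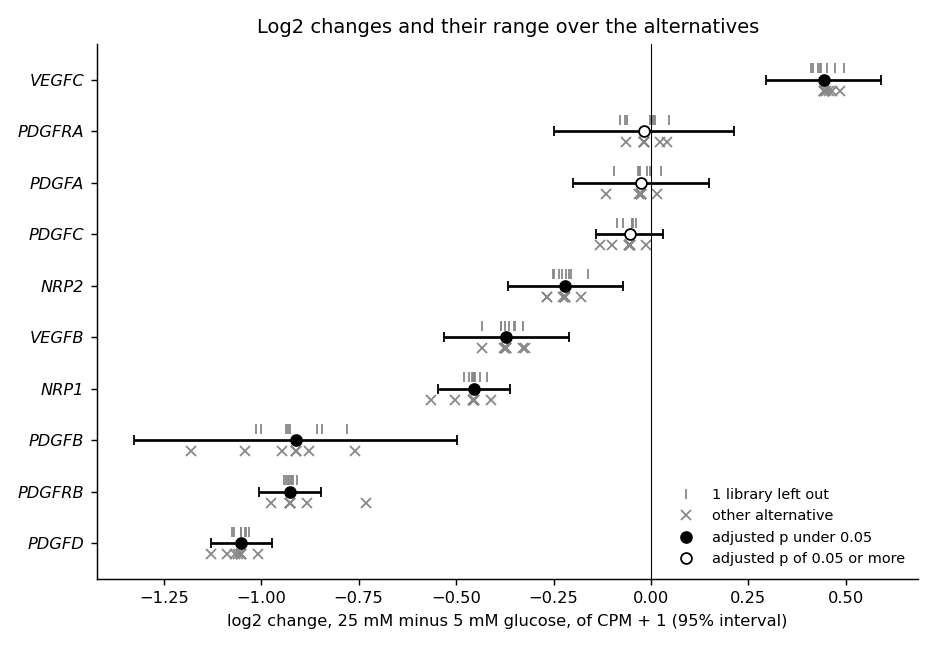
Log2 change of each gene at 25 mM against 5 mM glucose on the log2(CPM + 1) scale (horizontal axis) with its 95% interval, filled where the adjusted p was under 0.05. Gray marks give the same value with 1 library left out (bars, above) or under another alternative (crosses, below), and 7 genes stay on 1 side of 0 with their interval while PDGFA, PDGFC and PDGFRA straddle it.

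To compare levels between genes, CPM were divided by the length of the canonical transcript in kilobases. At low glucose PDGFRB led with 255 ± 2.95 CPM per kilobase, followed by VEGFB (31.6), NRP1 (26.96), PDGFA (24.6), PDGFD (22.2), PDGFC (12.7), VEGFC (11.4), NRP2 (6.64), PDGFRA (3.32) and PDGFB (1.29). Among neighbors in this order, PDGFC and VEGFC overlapped in their ranges and the others did not. At high glucose PDGFRB was again first with 134 ± 4.25 CPM per kilobase, ahead of VEGFB (24.3) and PDGFA (24.3), whose ranges overlapped. NRP1 (19.6), VEGFC (15.7), PDGFC (12.2), PDGFD (10.6), NRP2 (5.70), PDGFRA (3.28) and PDGFB (0.562) followed without overlap between neighbors. By canonical length PDGFD thus stood at place 5 at low and place 7 at high glucose, and VEGFC at 7 and 5. The order depended on the length. With the union of all exons, tried after these values were seen, PDGFD stood at place 3 at low glucose (20.03 CPM per kilobase), above PDGFA (14.7) and NRP1 (13.2), and at place 6 at high glucose, and VEGFC at 6 and 4.

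Within the PDGF ligand transcripts the share of D fell and those of A and C rose, although the levels of A and C themselves showed no change that passed the test. Per kilobase, PDGFD made up 36.6 ± 0.750% of the summed level of the 4 ligands at low glucose and 22.3 ± 1.83% at high glucose. PDGFA made up 40.5 ± 1.43% and 50.9 ± 2.67%, PDGFC 20.8 ± 0.660% and 25.6 ± 0.935%, and PDGFB 2.11 ± 0.391% and 1.18 ± 0.292%. For each of the 4 shares the groups did not overlap, and no test was run on them. The shares depend on one another through their sum, so they are not 4 separate results. The summed ligand level was 60.8 ± 0.856 CPM per kilobase at low and 47.6 ± 2.78 at high glucose. Which ligand led at low glucose depended on the length used, since with the union of all exons PDGFD held 43.9% and PDGFA 32.3%, but the direction of each shift was the same with either length.

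PDGFRB made up 98.6% to 98.9% of the summed receptor level per kilobase in the control libraries against 97.3% to 97.9% at high glucose, so it remained the predominant PDGF receptor transcript after its fall. The ratio of PDGFRB to PDGFRA per kilobase was 72.3 to 87.7 at low and 35.6 to 46.7 at high glucose. NRP1 made up 79.96% to 80.7% of the neuropilin level at low and 76.4% to 79.7% at high glucose, where replicate 1 was closest to the control range. The ratio of VEGFB to VEGFC per kilobase was 2.64 to 2.97 at low and 1.34 to 1.74 at high glucose. Between the ligands that bind PDGFRB, the ratio of PDGFD to PDGFB was 14.8 to 23.3 at low and 14.1 to 30.1 at high glucose, and here the groups overlapped.

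**Figure D3:**
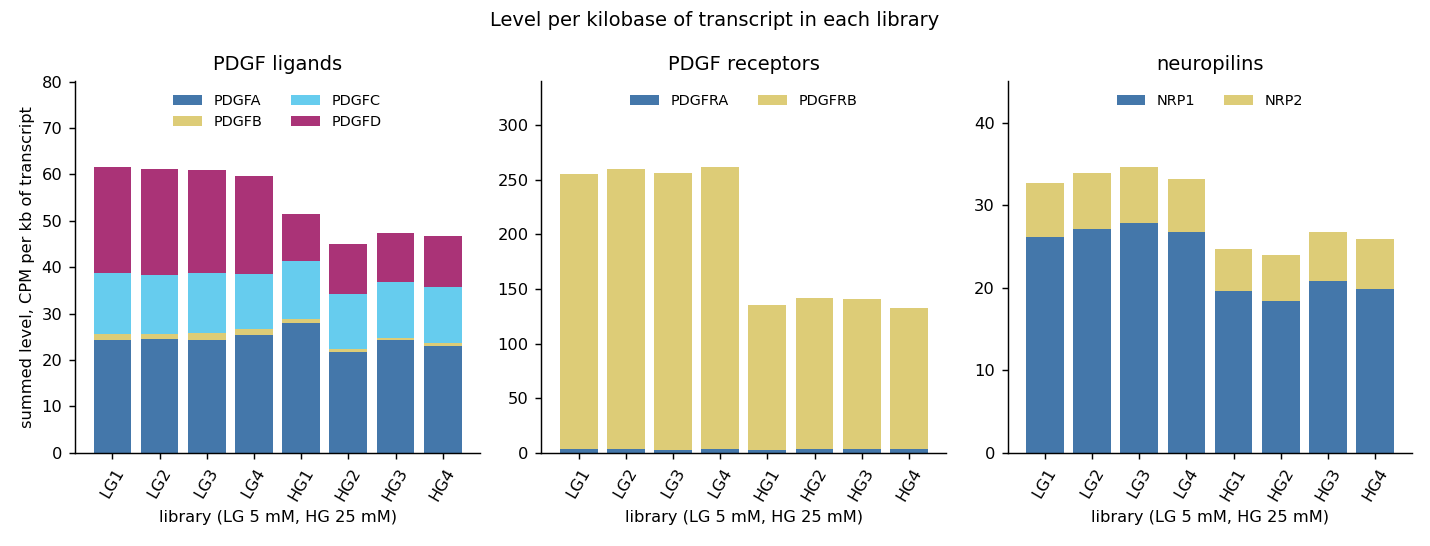
Level per kilobase of canonical transcript (vertical axis, CPM per kilobase) of the PDGF ligands, PDGF receptors and neuropilins, stacked by gene for each of the 8 libraries. The PDGFD segment shrinks in all 4 high glucose libraries, the receptor bars are nearly all PDGFRB in both groups, and the PDGFA and PDGFC segments stay close to their control height.

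Other genes of these pathways were read from 4 lists compiled from general knowledge, which hold 59 genes, all in the table. Of these, 19 were called higher and 17 lower at high glucose, with a median log2 change of 0.07, against -0.01 over all genes tested. The 36 of 59 called stand beside 46.8% of all genes and 62.1% of those of at least 1 CPM, a level that some of the 59 did not reach. The counts of the single lists that follow were not tested against other genes. They are to be read beside the shares of all genes (22% higher, 24.8% lower) and of genes of at least 1 CPM (29.5% higher, 32.6% lower). The 10 genes themselves had a median of -0.30.

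Of the 6 other genes of the VEGF family, 3 were higher, 0 lower and 3 did not pass (median log2 change 0.34), beside 46.8% of all genes called. At least 1 CPM was reached by 5 of them, with 3 called and a median of 0.43, beside 62.1% of genes at that level called. FLT1, a receptor of VEGFB, was at 5.67 ± 0.316 and 11.01 ± 0.892 CPM, with a log2 change of 0.85 (limma, adjusted p = 7.8e-05). KDR, the main signaling receptor of endothelium, was at 1.22 ± 0.255 and 2.27 ± 0.248 CPM, with a log2 change of 0.56 (limma, adjusted p = 0.00314). VEGFA, the founding ligand, was at 46.7 ± 2.36 and 63.0 ± 2.43 CPM, with a log2 change of 0.43 (limma, adjusted p = 1.9e-04). FLT4, the VEGFC receptor, was at 6.81 ± 1.13 and 6.99 ± 0.790 CPM (limma, adjusted p = 0.854), PGF at 52.7 ± 0.337 and 63.95 ± 10.3 CPM (adjusted p = 0.0724), and VEGFD under the value of 3 reads on average. FLT4, PGF and VEGFD were named after their values were seen. For PGF every high glucose library lay above every low glucose library, and high glucose replicate 1 was the highest at 78.6 CPM. Over the alternatives 3 or 4 of the 6 genes were called, with 4 called without that library.

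Of 12 enzymes and cofactors that cleave PDGF or VEGFC precursors, 2 were higher, 5 lower and 5 did not pass (median log2 change 0.02). For the 9 of them of at least 1 CPM the median was -0.22. FURIN, the convertase that matures PDGF and VEGFC chains in the secretory route, rose from 35.8 ± 3.73 to 62.8 ± 5.88 CPM (log2 change 0.79, limma, adjusted p = 4.0e-04). PCSK7, a related convertase, fell from 38.6 ± 1.21 to 33.1 ± 0.615 CPM (-0.22, adjusted p = 5.7e-04), and ADAMTS2, best known as a procollagen protease, fell from 180.1 ± 3.77 to 91.1 ± 4.43 CPM (-0.98, adjusted p = 2.8e-06). PLAT, which activates the latent C chain, fell from 17.4 ± 2.06 to 11.1 ± 1.23 CPM (-0.60, limma, adjusted p = 0.00265). CCBE1 and ADAMTS3, which act together on VEGFC, went opposite ways, with CCBE1 at a log2 change of -0.43 (adjusted p = 0.00756) and ADAMTS3 at 0.39 (adjusted p = 0.00379). PLAT, CCBE1 and ADAMTS3 were named after their values were seen.

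Among class 3 semaphorins and their plexin receptors, which share the neuropilins, 2 of 12 genes were higher, 6 lower and 4 did not pass (median log2 change -0.23). The median was -0.42 for the 10 of these genes of at least 1 CPM. SEMA3A, a ligand of NRP1, fell from 92.7 ± 3.58 to 55.7 ± 4.90 CPM (log2 change -0.73, limma, adjusted p = 9.6e-05), and SEMA3F, a ligand of NRP2, from 15.4 to 8.002 CPM (-0.86, adjusted p = 3.1e-04). SEMA3C, which binds both neuropilins, rose from 173 ± 3.38 to 257 ± 15.1 CPM (0.56, adjusted p = 5.2e-05).

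Of 29 adaptors, enzymes and regulators that act on activated receptors, 12 were higher, 6 lower and 11 did not pass (median log2 change 0.13). The median was 0.15 for the 28 of at least 1 CPM. The adaptor CRKL rose from 74.6 ± 3.08 to 139 ± 2.57 CPM (log2 change 0.89, limma, adjusted p = 2.1e-06). PTPN1, a phosphatase that dephosphorylates PDGF receptors, rose from 145 ± 2.52 to 194 ± 4.36 CPM (0.42, adjusted p = 8.9e-06). LRP1, an endocytic receptor that associates with PDGFRB, fell from 202 ± 6.92 to 67.2 ± 8.57 CPM (-1.58, adjusted p = 1.3e-05), a larger log2 fall than that of any of the 10 genes.

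**Figure D4:**
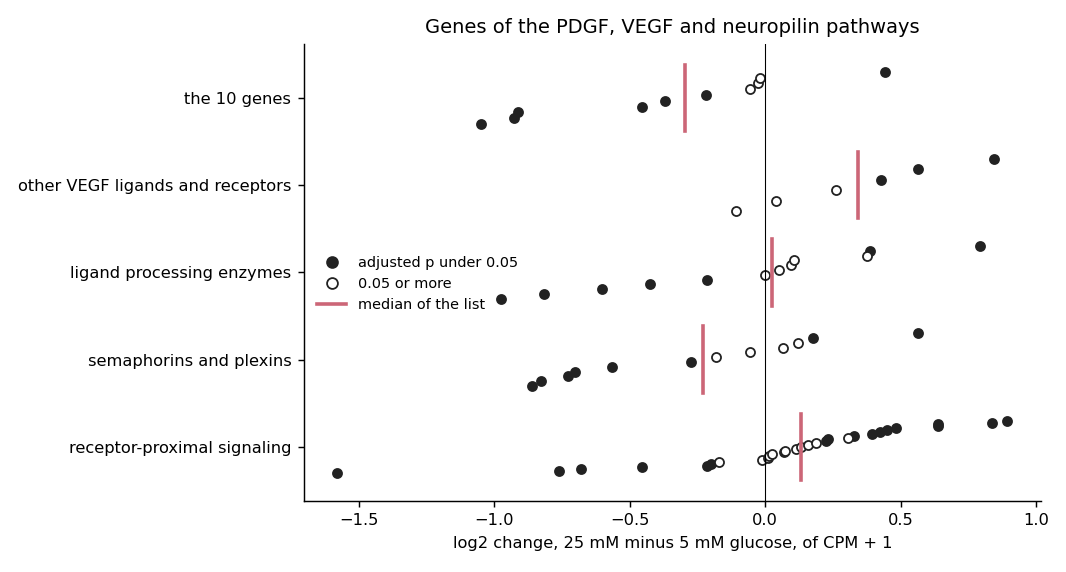
Log2 change at 25 mM against 5 mM glucose on the log2(CPM + 1) scale (horizontal axis) of each gene in the set of 10 and in the 4 pathway lists (rows), filled where the adjusted p was under 0.05, with the median of each list as a red line. Medians range from -0.30 for the 10 genes to 0.34 for the other VEGF genes, and each list except the other VEGF genes has calls on both sides of 0.

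Since PDGFRB, FLT1 and KDR are commonly used to trace vascular cells in tissue, markers of other cell types were checked. Of 12 endothelial and pericyte markers in the table, 10 averaged under 1 CPM. Their summed level was 18.8 to 22.5 CPM at low and 13.4 to 18.9 CPM at high glucose, most of it EGFL7 (14.1 ± 1.90 and 10.1 ± 2.34 CPM, log2 change -0.45, limma, adjusted p = 0.0713). By call, 2 of the 12 were higher and 5 lower, against 22% and 24.8% of all genes. These shares are not matched in level. Of the 9849 genes called among 21059, 8927 were among the 14372 of at least 1 CPM, so genes under 1 CPM were called less often. Of the 7 markers called, 1 reached that level. The count was not tested against genes of like level. PECAM1, a defining endothelial marker, rose from 1.0001 to 2.13 CPM (0.63, adjusted p = 0.00775), and ESAM, an endothelial adhesion molecule, from 0.261 to 1.55 CPM (1.01, limma, adjusted p = 0.00446). The 5 lower were VWF, from 1.45 to 0.310 CPM (-0.95, limma, adjusted p = 0.00592), CDH5, from 0.278 to 0.0206 CPM (-0.32, adjusted p = 0.0116), and the pericyte markers CSPG4 (-0.64, adjusted p = 0.0119), KCNJ8 (-0.50, adjusted p = 6.9e-04) and ABCC9 (-0.34, adjusted p = 0.0248). TEK and TIE1 averaged 0 to 0.246 CPM and did not pass. The pericyte marker RGS5, at 1.07 and 0.847 CPM, did not pass either (-0.14, limma, adjusted p = 0.779). ESAM, RGS5 and the lower genes were named after their values were seen. Of 3 leukocyte markers in the table, CD14 rose from 1.25 ± 0.337 to 4.24 ± 1.33 CPM (1.20, adjusted p = 0.00252), while PTPRC, found on all leukocytes, averaged 0.0997 and 0.123 CPM. Of 10 markers of the line, 3 were higher and 4 lower, beside 22% and 24.8% of all genes. At least 1 CPM was reached by 7 of them, with 6 called, beside 62.1% of genes at that level, and this was not tested. CDH2, a mesenchymal cadherin, rose from 55.2 ± 2.29 to 75.5 ± 1.80 CPM (0.44, adjusted p = 4.6e-05), EPCAM from 4.50 ± 0.414 to 6.996 ± 0.445 CPM (0.54, adjusted p = 0.00104), and KRT8, an epithelial keratin, fell from 131 ± 5.95 to 88.3 ± 10.3 CPM (-0.57, adjusted p = 0.00117). The mesenchymal markers VIM and FN1 were lower, VIM from 4091 ± 28.5 to 2967 ± 210.3 CPM (-0.47, limma, adjusted p = 0.00224) and FN1 from 3612 ± 43.96 to 2537 ± 360.2 CPM (-0.52, adjusted p = 0.00848). The keratin KRT18 was also lower (-0.46, limma, adjusted p = 0.00149). GATA3, a luminal factor, was higher (0.89, limma, adjusted p = 4.7e-04), but from few reads, 0 to 16 per library, with means of 0.123 and 1.09 CPM. VIM, FN1, KRT18 and GATA3 were named after their values were seen. The part of these markers in the values of the 10 genes was not tested.

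The genes whose profile over the 8 libraries lay closest to the 3 largest changes were sought among 11232 other genes of at least 5 CPM, by the root mean square difference of log2(CPM + 1) values centered on each gene's mean. PDGFRB had 209 genes within 0.1 of its profile, PDGFD had 119 and PDGFB, with its few reads, had 0. The closest to PDGFRB were ARHGEF40 (0.0213), from 104 ± 1.11 to 54.2 ± 1.77 CPM, and STAT6 (0.0353), from 81.0 ± 1.24 to 40.9 ± 1.31 CPM. The closest to PDGFD were the membrane peptidase MME (0.0435), from 399 ± 5.27 to 201 ± 10.2 CPM, and COCH (0.0443), from 45.2 ± 0.533 to 21.8 ± 0.270 CPM. NIPSNAP3A (0.1301) and NDST3 (0.135) came next to PDGFB. These distances describe the same 8 libraries and say nothing of shared function.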

How the data were processed

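RNA sequencing of MDA-MB-157 cells gave 1 deposited table of counts per 1000000 reads (CPM), which the authors scaled with TMM factors from edgeR per their methods after removing genes that did not reach 0.5 CPM in 2 samples. That filter does not hold over these 8 libraries, since 856 genes are at 0 in all of them. Their methods, in a section on tumors and cultured cells together, name stranded libraries, TopHat and the hg19 build, whereas the processing notes name hg38 and edgeR, so the build of the table is not settled. Positions are RefSeq's in GRCh38.p14, and lengths, overlaps and shared words come from GENCODE release 44 on GRCh37.

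Of 21077 lines, 18 Y copies identical to their X copies were left out. From 73.5% to 74.6% of low values were whole reads (tolerance 0.02), so no count test was used. Depths and floors cover counting error only. Groups come from the labels, which do not say that replicates were separate cultures, and p-values then measure the spread between these libraries. Values of log2(CPM + 1) were fitted with limma 3.58.1 in R 4.3.3 (mean-variance trend, 2-sided, Benjamini-Hochberg adjustment over 21059 genes, threshold 0.05). The steps were tested on simulated data. The genes, lists and tests were chosen with earlier results of these data known, and the alternatives are given in the closing section. Besides the 10 genes, up to 3 genes per list with the smallest adjusted p and at least 1 CPM are named, and the 2 nearest genes of each of 3 members.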

Additional observations from a re-analysis of the deposited data

Results flagged for a closer look

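In 9 of 70 groups of 4 values examined, the most extreme library was separated from its nearest neighbor by a larger part of the range than Dixon's test allows at 0.05, where chance gives about 3.5. Among the 10 genes these were PDGFC at high glucose, whose highest library was at 57.7 CPM, PDGFRA at low glucose, whose lowest was at 18.4 CPM, and VEGFC at low glucose, whose highest was at 27.5 CPM. The share of PDGFC in the PDGF ligands had its lowest low glucose library at 19.8%. The other 5 were FLT1 at high glucose (lowest, 9.69 CPM), CRKL at low glucose (highest, 79.2 CPM), PECAM1 at low glucose (highest, 1.24 CPM), CDH2 at high glucose (highest, 78.2 CPM) and the estimated reads at low glucose (highest, 12104200).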

How the results depend on the processing

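Over 16 alternatives (pseudocounts of 0.1 and 0.5, a minimum mean of 1 CPM, quantile and median-of-ratios scaling, no trend, the replicate block, removal of the length trend, and each library left out), 146 of 160 values of the 10 genes kept their direction and their side of the threshold. PDGFB, PDGFD, PDGFRB, VEGFB, VEGFC and NRP1 did so in all 16. PDGFA had a log2 change of 0.016 with median-of-ratios scaling and of -0.10 to 0.025 with 1 library left out. PDGFRA was at 0.041 with quantile normalization, 0.023 with median-of-ratios scaling and -0.079 to 0.047 with 1 library left out. PDGFC passed with quantile normalization (-0.13) and without low glucose replicate 4, with values of -0.087 to -0.038 over the libraries left out. NRP2 did not pass with median-of-ratios scaling (-0.18) or without low glucose replicates 2 or 3 or high glucose replicate 2, with values of -0.25 to -0.16. The cause was not tested. Genes of at least 1 CPM had a median log2 change of -0.042, or -0.0028 with median-of-ratios scaling. Replicate numbers did not pair the libraries (correlations of -0.04 to 0.07 between same-numbered deviations over genes of at least 5 CPM), and with the replicate block 7 of the 10 genes and 8921 of all genes passed. Depth limits PDGFB, at 16 to 66 reads per library.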
